A study of Mus musculus with 12 samples.

Results

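The 45 genes described here encode the machinery that copies and divides the genome: 21 act in DNA replication, including the G1/S switch and nucleotide supply, and 24 act in mitosis. They were picked by name, and each of their probes was tested if it stood above background (detection p below 0.05) on 3 or more of the 12 arrays. Of the 45 genes, 44 had a named probe and 41 were tested (21 replication and 20 mitosis genes), out of 14326 genes tested on the array. Each gene was read from its brightest tested probe, and 37 of the 41 were detected on all 12 arrays. Ccna2 was detected on 6 arrays, Ube2c on 10 and Gmnn on 11. Chek1, with 3 arrays, lay just inside the threshold, and Ccnb2, Bub1 and Kif20a, with 0 arrays, lay outside it. No probe was matched to Ccnb1, the mitotic cyclin B1, which was not analysed here.

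RNA came from spleen cells carrying CD11c, an integrin of dendritic cells, that were purified with magnetic beads; each sample was read on an Illumina MouseWG-6 v2 array. The 4 groups had 3 samples each: ApoE-/- mice on a high-cholesterol diet (samples 4 to 6), ApoE-/- mice on normal chow (samples 1 to 3), Bl6 mice on the high-cholesterol diet (samples 10 to 12) and Bl6 mice on normal chow (samples 7 to 9). The labels give the control strain as Bl6 and elsewhere as WT, and give no age, diet duration, or number of mice behind a sample, so p-values measure the variation among these samples only, and that may be technical. ApoE-/- mice lack apolipoprotein E, the protein that lets the liver clear cholesterol-rich lipoprotein remnants, and all cells of the animal carry the deletion.

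Cells that are about to divide first load the MCM helicase onto replication origins, with Cdc6 and Cdt1 as loaders and geminin (Gmnn) as the inhibitor of Cdt1. E2F transcription factors switch on these licensing genes together with those for nucleotide synthesis, in late G1. The mitotic genes follow in G2: the factor Foxm1 and the MuvB complex, which binds the CHR element (cell cycle genes homology region), raise the kinases, spindle motors and chromosome proteins. In the spleen, dividing cells include precursors of dendritic cells, germinal centre B cells and, in extramedullary haematopoiesis, erythroid and granulocyte precursors; most mature dendritic cells do not divide. In a bulk sample, a smaller share of dividing cells and less RNA of these genes per dividing cell cannot be told apart.

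The letters of E2F and CHR sites were counted in the promoters of both kinds of gene. Windows of the 250 bases before the transcription start were read from RefSeq on GRCm38.p6 and were at hand for 37 of the 45 genes (18 replication and 19 mitosis genes, 20 windows each). The E2F motif was searched as TTTCCCGC, TTTCGCGC, TTTGCCGC or TTTGGCGC and CHR as TTTGAA, both on either strand. An E2F motif lay in 5 of 20 replication windows (25%), in 1 of 20 mitosis windows (5%) and in 1.86% of all 32851 windows. CHR lay in 2 of 20 replication windows (10%), in 9 of 20 mitosis windows (45%) and in 16% of all windows. The box CCAAT, searched on both strands, lay in 65% of replication windows, 90% of mitosis windows and 33.8% of all windows. These are matches of letters, not measured binding. Below, Mki67 is shown for its pair of CHR letters, Mcm5 for a pair of overlapping E2F matches on opposite strands, and Cdk1 because its window alone among these held both motifs; capitals mark the E2F and CHR letters.
Mki67, chr7:135716380-135716629, minus strand: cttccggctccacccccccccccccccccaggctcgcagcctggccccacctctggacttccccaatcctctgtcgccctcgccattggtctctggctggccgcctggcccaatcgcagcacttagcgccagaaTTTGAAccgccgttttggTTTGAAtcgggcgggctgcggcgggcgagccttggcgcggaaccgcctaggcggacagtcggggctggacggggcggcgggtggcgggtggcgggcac
Mcm5, chr8:75109259-75109508, plus strand: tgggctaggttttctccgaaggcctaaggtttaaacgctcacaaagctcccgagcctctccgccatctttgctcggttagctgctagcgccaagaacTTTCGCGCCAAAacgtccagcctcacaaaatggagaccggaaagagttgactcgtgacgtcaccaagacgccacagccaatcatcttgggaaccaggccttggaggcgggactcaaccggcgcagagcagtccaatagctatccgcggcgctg
Cdk1, chr10:69352913-69353162, minus strand: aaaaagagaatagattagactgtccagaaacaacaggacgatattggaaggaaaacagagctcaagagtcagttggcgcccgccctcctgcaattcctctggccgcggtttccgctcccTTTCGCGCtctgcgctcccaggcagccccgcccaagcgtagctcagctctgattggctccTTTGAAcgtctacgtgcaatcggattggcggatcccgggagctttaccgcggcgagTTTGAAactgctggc
In Mki67 the CHR letters began 116 and 98 bases before the start, in Mcm5 the E2F matches began 153 and 149 bases before it, and in Cdk1 the E2F match began 131 bases and the CHR letters 71 and 15 bases before it.

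All 12 arrays were similar in brightness, with a median intensity of 102 to 120 and 47.7% to 50.3% of probes detected. Apoe itself read 5.50 to 5.93 across ApoE-/- arrays and 12.18 to 13.28 across Bl6 arrays (normalized log2 intensity, as for all values below), which fits the labels. The X-inactivation RNA Xist read 4.17 to 4.39 across ApoE-/- arrays and 9.75 to 10.88 across Bl6 arrays, and the Y-linked Eif2s3y 9.75 to 10.44 across ApoE-/- arrays and 4.11 to 4.41 across Bl6 arrays, so the effects of genotype and sex cannot be told apart. The dendritic cell genes Itgax, which encodes CD11c (8.03 to 8.73), and Zbtb46, a factor of conventional dendritic cells (6.69 to 7.71), were detected on all 12 arrays, and Flt3, a receptor of dendritic cell precursors, on 5. The 2 deposited tables name the ApoE-/- diets oppositely: the columns named ApoE-/- chow in the log2 table hold the arrays named ApoE-/- high-cholesterol in the intensity table. The names of the intensity table are used here, and the per-diet medians and non-overlap counts are also given with the ApoE-/- diets exchanged. The comparison of genotypes averaged over diets does not depend on these names; every other value by ApoE-/- diet does.

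In no comparison did any of the 41 genes pass an adjusted p of 0.05 (limma, Benjamini-Hochberg over 26390 probes). Their log2 differences between ApoE-/- and Bl6, averaged over diets, nevertheless lay mostly on one side: 35 of 41 were above 0 (85.4%), against 51.6% of all tested genes, with a median of 0.20 against 0.01; without sample 11 the median was 0.10 for the 41, 0.08 for replication and 0.13 for mitosis genes. The median was 0.18 for the replication genes, 17 of 21 of them above 0, and 0.23 for the mitosis genes, 18 of 20 above 0. Over all tested genes, 1.96% passed in this comparison, and of the 41 genes here 0 did. At an unadjusted p under 0.05 there were 7: Mcm2, Mcm4, Mcm5, Mcm10, Foxm1, Mki67 and Top2a, all higher in ApoE-/-. By probe, 12 of the 72 tested probes of these genes were at that level, against 4166 of all 26390 in either direction. The differences of the genes detected in both genotypes ran between -0.22 (Pcna and Ube2c) and 0.43 (Mki67 and Top2a). Because the genes moved together from array to array, as shown further on, the 41 differences are not independent of each other.

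Other processing moved some of these genes past the threshold, all of them higher in ApoE-/-. With no background correction, Mcm2, Mcm4 and Mki67 passed in the comparison averaged over diets, where 5.18% of all genes passed. In the authors' log2 table Foxm1, Mcm2, Mcm4, Mcm5, Mki67 and Top2a passed, where 7.38% of all genes did. Most genes passing in that table were higher in ApoE-/-, 808 of 1057, and its median difference over all genes was 0.08. Mki67 alone passed with a background offset of 50 (4.05% of all genes) and without sample 7 (2.71% of all genes).

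**Figure D1:**
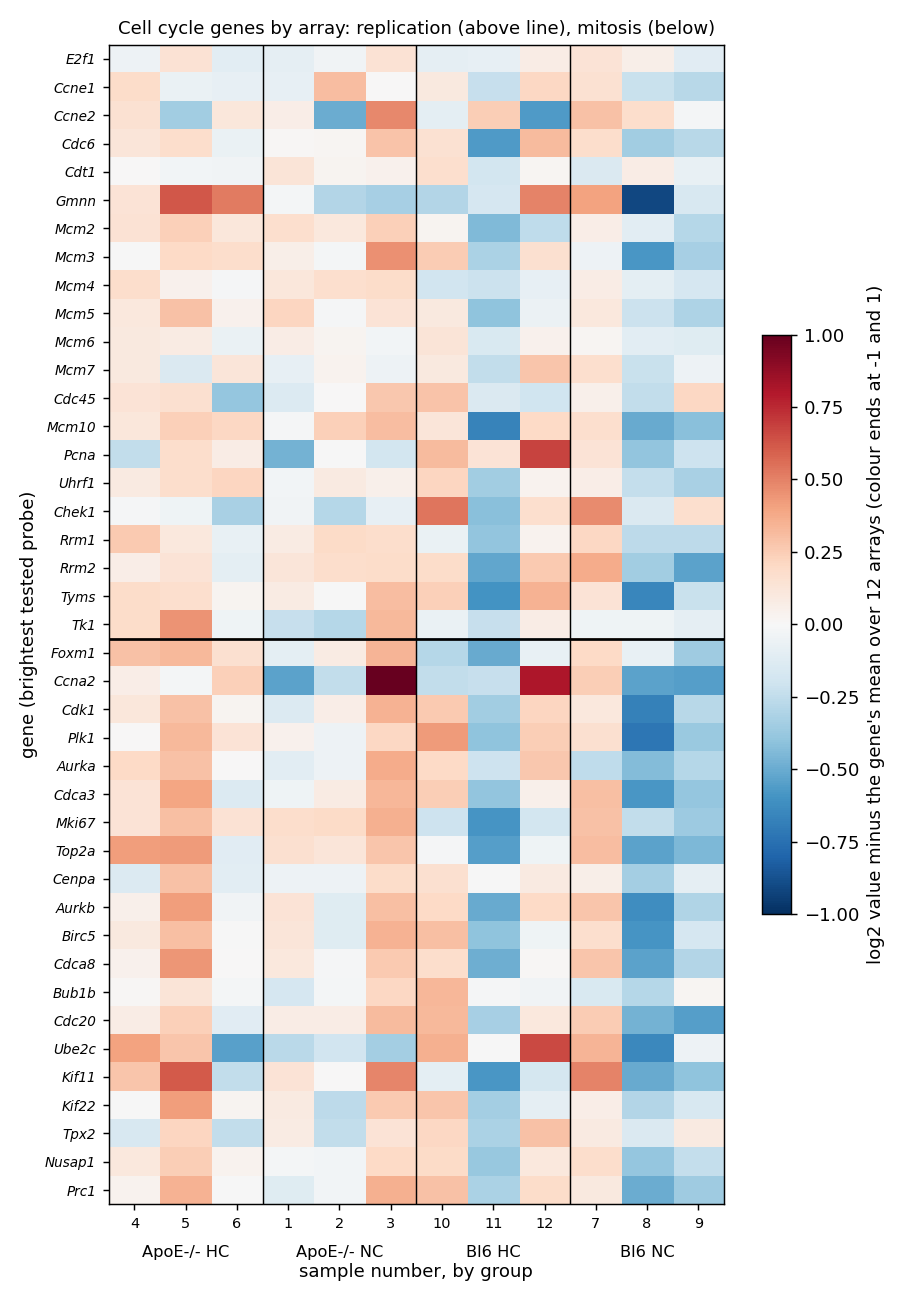
Heat map of the 41 tested genes (rows, replication genes above the line and mitosis genes below) on the 12 arrays (columns by group); colour is the log2 value minus the mean of that gene over the arrays. The columns of samples 8, 9 and 11, all Bl6, are mostly blue, and those of samples 3 and 5, both ApoE-/-, are mostly red.

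Among the G1/S switch genes, E2f1, the activator of the replication programme, was level across all arrays, at 8.89 to 9.14 across ApoE-/- arrays and 8.88 to 9.13 across Bl6 arrays, a log2 difference of 0.01 ± 0.09 (SE). Ccne1, cyclin E1, which activates Cdk2 at the start of S phase, read 6.61, 6.36 and 6.35 in ApoE-/- samples on the high-cholesterol diet and 6.35, 6.74 and 6.43 in those on chow. It read 6.53, 6.20 and 6.64 in Bl6 samples on the high-cholesterol diet and 6.58, 6.21 and 6.15 in those on chow. The genotypes overlapped, with a difference of 0.09 ± 0.12 (SE, adjusted p = 0.778). Ccne1 lies on chromosome 7 within 20 Mb of Apoe, the only one of these genes to do so. Ccne2, cyclin E2, differed by -0.01 ± 0.18 (SE).

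Of the 9 licensing genes, 8 had a difference above 0 in the comparison of genotypes averaged over diets, with a median of 0.21. Mcm2, a subunit of the MCM helicase, read 9.25, 9.34 and 9.22 in ApoE-/- samples on the high-cholesterol diet and 9.27, 9.21 and 9.34 in those on chow. It read 9.13, 8.66 and 8.85 in Bl6 samples on the high-cholesterol diet and 9.17, 9.00 and 8.82 in those on chow. All 6 ApoE-/- samples lay between 9.21 and 9.34 and above all 6 Bl6 samples; Mcm2 was the only one of the 41 genes whose genotypes did not overlap in this way, against 1.36% of all genes higher in ApoE-/- without overlap; 0 of 41 were lower without overlap, against 1.57% of all genes. Its difference was 0.33 ± 0.10 (SE, 95% interval 0.12 to 0.55, adjusted p = 0.123). Mcm4, the brightest of the helicase genes at 11.62 to 11.82 across ApoE-/- arrays and 11.42 to 11.71 across Bl6 arrays, differed by 0.22 ± 0.08 (SE, adjusted p = 0.179). Mcm5 differed by 0.26 ± 0.11 and Mcm3 by 0.29 ± 0.13 (SE), while Mcm7 differed by -0.01 ± 0.11 (SE).

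Mcm6 shows how far a result can depend on the probe. Its brightest probe gave 0.06 ± 0.08 (SE, adjusted p = 0.764), while its next brightest probe gave 0.39 ± 0.10 (adjusted p = 0.0968), the smallest adjusted p of the 72 tested probes of these genes, and another probe 0.42 ± 0.12 (adjusted p = 0.109). Of the 72 probes 0 passed in this comparison, against 1.60% of all tested probes. Of the 19 genes with more than 1 tested probe, 8 had probes of both signs in this comparison. The loader Cdc6 differed by 0.18 ± 0.16 and the loader Cdt1 by 0.05 ± 0.08 (SE). Gmnn, which blocks Cdt1 once S phase has begun, differed by 0.21 ± 0.21 (SE).

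At the fork the median difference was 0.02 over 5 genes, and the members parted. Mcm10, which helps activate the helicase, read 8.75, 8.88 and 8.85 in ApoE-/- samples on the high-cholesterol diet and 8.63, 8.88 and 8.95 in those on chow. It read 8.76, 7.97 and 8.84 in Bl6 samples on the high-cholesterol diet and 8.81, 8.14 and 8.22 in those on chow. In Bl6 samples 8, 9 and 11 Mcm10 was low, and the other Bl6 samples lay among the ApoE-/- ones, giving a difference of 0.37 ± 0.17 (SE, adjusted p = 0.312).

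Pcna, the sliding clamp of the replicative polymerases, ran the other way, at 8.23, 8.65 and 8.55 in ApoE-/- samples on the high-cholesterol diet and 8.00, 8.47 and 8.29 in those on chow. It read 8.79, 8.61 and 9.15 in Bl6 samples on the high-cholesterol diet and 8.61, 8.08 and 8.27 in those on chow. Sample 12 was the highest and sample 1 the lowest, and the genotypes overlapped, with a difference of -0.22 ± 0.14 (SE, adjusted p = 0.479). Chek1, the kinase that halts the cycle when forks stall, was above background on no ApoE-/- array and on 3 Bl6 arrays, so it has only a bound in ApoE-/- samples and no fold is given. Uhrf1, which keeps DNA methylation through replication, differed by 0.20 ± 0.11 (SE) and Cdc45, a helicase subunit, by 0.02 ± 0.14 (SE).

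All 4 genes of nucleotide supply had a difference above 0, between 0.14 for Tk1, thymidine kinase, and 0.25 for Rrm1 and Tyms. Rrm1, the large subunit of ribonucleotide reductase, read 9.82, 9.66 and 9.48 in ApoE-/- samples on the high-cholesterol diet and 9.64, 9.75 and 9.73 in those on chow. It read 9.49, 9.16 and 9.59 in Bl6 samples on the high-cholesterol diet and 9.76, 9.29 and 9.29 in those on chow. Samples 8, 9 and 11 were again the low ones, and the genotypes overlapped (0.25 ± 0.11, SE, adjusted p = 0.32).

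**Figure D2:**
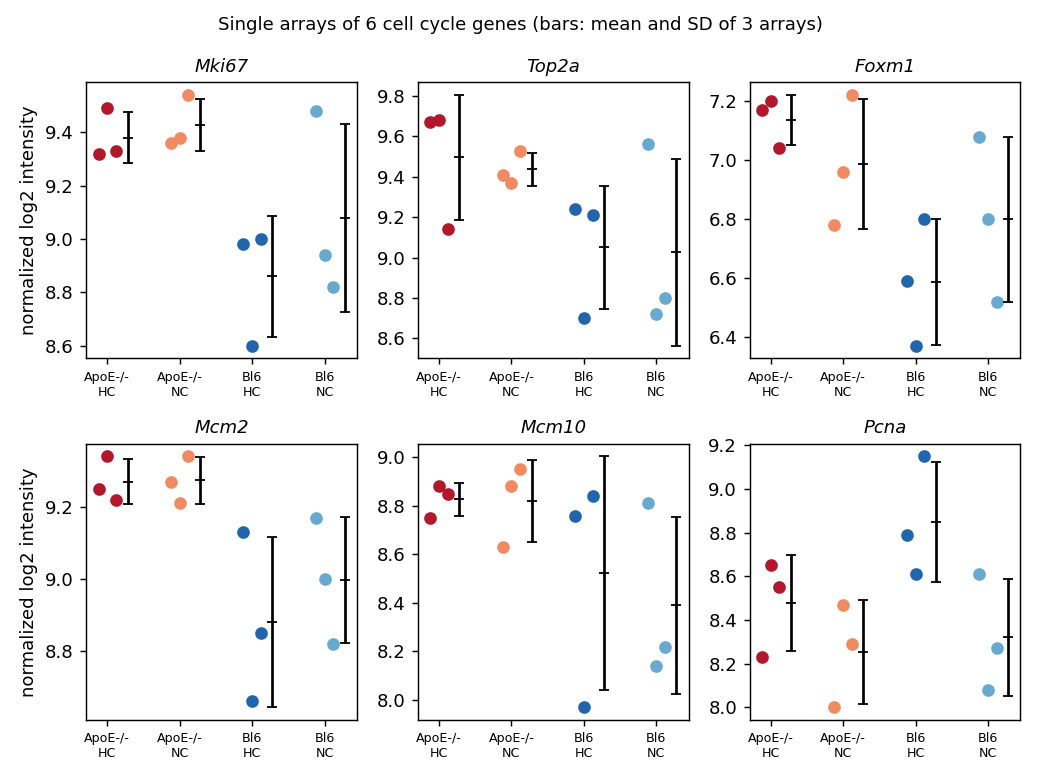
Normalized log2 intensity of Mki67, Top2a, Foxm1, Mcm2, Mcm10 and Pcna on single arrays (points) with the mean and SD of the 3 arrays of each group (bars), ApoE-/- groups on the left. For Mcm2 every ApoE-/- point lies above every Bl6 point; in the other panels the genotypes overlap.

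The 6 genes of mitotic entry all had a difference above 0, with a median of 0.24. Foxm1, the transcription factor of the G2 and mitosis programme, read 7.17, 7.20 and 7.04 in ApoE-/- samples on the high-cholesterol diet and 6.78, 6.96 and 7.22 in those on chow. It read 6.59, 6.37 and 6.80 in Bl6 samples on the high-cholesterol diet and 7.08, 6.80 and 6.52 in those on chow. On the high-cholesterol diet the genotypes did not overlap, with a difference of 0.55 ± 0.17 (SE, adjusted p = 0.19), while on chow they did; with the ApoE-/- diets exchanged they overlapped on the high-cholesterol diet too, with a difference of 0.40 (adjusted p = 0.323). Averaged over diets the difference was 0.37 ± 0.12 (SE, adjusted p = 0.168). Cdk1, the kinase that drives mitosis, differed by 0.24 ± 0.16, Plk1, a kinase of centrosome and spindle assembly, by 0.23 ± 0.17, and Aurka, a centrosomal kinase, by 0.24 ± 0.12 (SE).

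The chromosome and centromere genes had the highest median difference of the 8 role groups, 0.27, with 6 of 6 above 0. Mki67, which encodes the proliferation marker Ki-67 that coats mitotic chromosomes, read 9.32, 9.49 and 9.33 in ApoE-/- samples on the high-cholesterol diet and 9.36, 9.38 and 9.54 in those on chow. It read 8.98, 8.60 and 9.00 in Bl6 samples on the high-cholesterol diet and 9.48, 8.94 and 8.82 in those on chow. Sample 7 was the single Bl6 sample among the ApoE-/- values; the other 5 lay below all of them. The difference was 0.43 ± 0.12 (SE, 95% interval 0.16 to 0.70, adjusted p = 0.113), and without sample 7 it was 0.53 (adjusted p = 0.0281); over all alternatives the adjusted p ran between 0.00944 and 0.215.

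Top2a, the topoisomerase that disentangles sister chromatids, read 9.67, 9.68 and 9.14 in ApoE-/- samples on the high-cholesterol diet and 9.41, 9.37 and 9.53 in those on chow. It read 9.24, 8.70 and 9.21 in Bl6 samples on the high-cholesterol diet and 9.56, 8.72 and 8.80 in those on chow. Sample 7 lay among the ApoE-/- values, and sample 6, the lowest ApoE-/- one, lay below samples 10 and 12; the difference was 0.43 ± 0.17 (SE, 95% interval 0.06 to 0.79, adjusted p = 0.236). The chromosomal passenger genes Aurkb, Birc5 and Cdca8 differed by 0.25 ± 0.18, 0.25 ± 0.16 and 0.29 ± 0.16 (SE), and the centromeric histone gene Cenpa by 0.05 ± 0.11 (SE).

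For checkpoint and exit the median was 0.04 over 3 genes. Cdc20, the activator of the anaphase-promoting complex, read 9.64, 9.80 and 9.45 in ApoE-/- samples on the high-cholesterol diet and 9.64, 9.64 and 9.88 in those on chow. It read 9.89, 9.23 and 9.67 in Bl6 samples on the high-cholesterol diet and 9.82, 9.09 and 9.01 in those on chow. The genotypes overlapped, the highest and the lowest sample both being Bl6 (0.22 ± 0.16, SE, adjusted p = 0.547). Bub1b, a checkpoint kinase, differed by 0.04 ± 0.10 (SE) and Ube2c, the ubiquitin-conjugating enzyme of the anaphase-promoting complex, by -0.22 ± 0.20 (SE).

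The spindle and cytokinesis genes had a median of 0.18 over 5 genes. Kif11, the motor that pushes spindle poles apart, read 7.90, 8.24 and 7.38 in ApoE-/- samples on the high-cholesterol diet and 7.76, 7.63 and 8.11 in those on chow. It read 7.53, 7.04 and 7.45 in Bl6 samples on the high-cholesterol diet and 8.12, 7.12 and 7.22 in those on chow. Sample 7 again lay among the ApoE-/- values, sample 6 below samples 10 and 12, and the difference was 0.42 ± 0.20 (SE, adjusted p = 0.338). Tpx2, which activates Aurora A on the spindle, was the exception among these, at -0.08 ± 0.13 (SE).

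On each diet taken alone, the genotype comparison rests on 3 samples against 3. On the high-cholesterol diet the median difference was 0.11 (30 of 41 above 0, against 51.5% of all genes), with 0.11 for replication and 0.13 for mitosis genes. On chow it was 0.25 (34 of 41 above 0, against 51.3% of all genes), with 0.20 for replication and 0.32 for mitosis genes. In both, 0 of 41 genes passed, with 3 and 2 at an unadjusted p under 0.05. By probe, 9 and 6 of 72 were at that level, against 3474 and 2761 of all 26390 tested probes. Of all genes, 0.907% passed on the high-cholesterol diet and 0.307% on chow. In the authors' log2 table with the ApoE-/- arrays under the intensity table's names, an alternative chosen after seeing the data, Foxm1, Mcm2 and Mki67 passed on the high-cholesterol diet, where 4.36% of all genes did. In that table under its own names, where the opposite ApoE-/- arrays are compared, Mki67 passed (0.52, adjusted p = 0.0368), with 3.04% of all genes.

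On the high-cholesterol diet Mcm2, Mcm4, Foxm1 and Mki67 were higher in ApoE-/- without overlap, 4 of 41 genes against 10.7% of all genes. On chow Mcm2, Mcm3, Mcm4 and Aurka were, 4 of 41 against 8.77%. None of the 41 was lower without overlap on either diet, against 9.81% and 8.62% of all genes. With the ApoE-/- diets exchanged, the medians were 0.08 on the high-cholesterol diet and 0.28 on chow. The genes without overlap were then Mcm2, Mcm4, Rrm1, Mki67, Top2a and Kif11 higher and Pcna and Ube2c lower on the high-cholesterol diet (12.4% of all genes higher and 10.4% lower), and Mcm2, Mcm3, Uhrf1 and Aurka higher on chow (7.26% of all genes). The medians depended on single samples: without sample 11 the median on the high-cholesterol diet was -0.05, and without sample 8 the median on chow was 0.16.

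**Figure D3:**
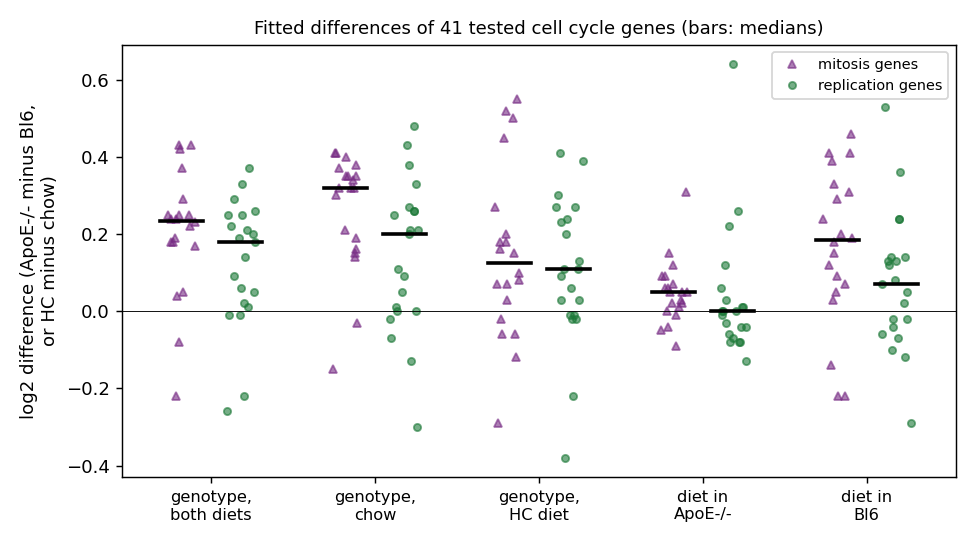
Fitted log2 differences of the 41 tested genes in 5 comparisons (points, triangles for mitosis and circles for replication genes; horizontal lines are medians). The points lie mostly above 0 in the genotype comparisons and for diet in Bl6 samples, and are centred near 0 for diet in ApoE-/- samples. No point passed an adjusted p of 0.05.

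The high-cholesterol diet moved none of these genes past the threshold. In ApoE-/- samples the median difference, high-cholesterol minus chow, was 0.01, with 25 of 41 above 0. Of the 41 genes 0 passed and 0 had an unadjusted p under 0.05, and 0% of all genes passed. By probe, 4 of 72 had an unadjusted p under 0.05, against 981 of all 26390 tested probes. With the ApoE-/- diets exchanged the median was -0.01. Gmnn was higher on the high-cholesterol diet without overlap, at 5.60, 6.08 and 5.98 against 5.44, 5.17 and 5.13 on chow (0.64 ± 0.30, SE, adjusted p = 1). Cdt1 was lower without overlap, at 10.01, 9.98 and 9.97 against 10.13, 10.03 and 10.05. Such separation was seen in 3.59% of all genes upward and 4.39% downward, so 1 of 41 in each direction is no more than that background, and with the diets exchanged both directions turn.

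In Bl6 samples the median was 0.12 (30 of 41 above 0, against 49.1% of all genes), with 0.07 for replication and 0.18 for mitosis genes; 0 of 41 passed, and 0.0558% of all genes did. Pcna was 0.53 ± 0.19 higher on the high-cholesterol diet (SE, adjusted p = 0.318) and Aurka 0.41 ± 0.17 (SE, adjusted p = 0.357). These were the 2 with an unadjusted p under 0.05. By probe, 7 of 72 were at that level, against 3156 of all 26390 tested probes. Aurka read 8.02, 7.61 and 8.09 on the high-cholesterol diet and 7.56, 7.38 and 7.53 on chow, the only one of the 41 whose diets did not overlap in Bl6 samples, against 8.02% of all genes higher; 0 of 41 were lower without overlap, against 8.86% of all genes. Of all tested probes 0.0379% passed for diet in Bl6 samples, and of the 72 probes of these genes 0 did. The Bl6 median was 0.00 without sample 8 and 0.28 without sample 7. Averaged over genotypes the diet median was 0.07 with 1 gene (Pcna) at an unadjusted p under 0.05. For the interaction of diet and genotype the median was -0.10 with 0 genes at that level. By probe, 6 and 2 of 72 were at that level, against 1962 and 2006 of all 26390 tested probes. No member passed in either, nor did any other gene (0% of all genes). With the ApoE-/- diets exchanged these medians were 0.05 and -0.15, and without sample 8 the interaction median was 0.04. These comparisons share arrays with the genotype comparisons above and are not independent of them.

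The high and low arrays did not follow the 4 groups, though the extremes differed by genotype. The lowest, samples 8, 9 and 11, were all Bl6, and the highest, samples 3 and 5, were both ApoE-/-, with both diets on each side. Each gene was set to its own mean over the arrays and the 41 values were averaged on each array. This mean was 0.10, 0.22 and -0.01 in ApoE-/- samples on the high-cholesterol diet (samples 4, 5 and 6) and -0.01, -0.02 and 0.22 in those on chow (samples 1, 2 and 3). It was 0.13, -0.31 and 0.12 in Bl6 samples on the high-cholesterol diet (samples 10, 11 and 12) and 0.16, -0.35 and -0.23 in those on chow (samples 7, 8 and 9). The other 3 Bl6 samples, 7, 10 and 12, stood within the ApoE-/- range of -0.02 to 0.22, and samples 8, 9 and 11 stood below it.

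Samples 8, 9 and 11, singled out after their values were seen, were the lowest array for 37 of the 41 genes, against 27.2% of all genes. On all 3 together, 33 of 41 genes were below their own mean, against 16.9% of all genes. Samples 3 and 5, likewise singled out, were the highest array for 24 of 41, against 14.1% of all genes. In the genotype comparison the low values of Bl6 samples were thus found on 3 of 6 arrays.

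The spread within groups was wider in Bl6 samples. The median SD of these genes was 0.147 in ApoE-/- samples on the high-cholesterol diet and 0.16 in those on chow, and 0.305 in Bl6 samples on the high-cholesterol diet and 0.282 in those on chow. For all genes the same medians were 0.169, 0.154, 0.18 and 0.191. In 35 of 41 genes the Bl6 range was wider than the ApoE-/- range, against 63.9% of all genes.

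**Figure D4:**
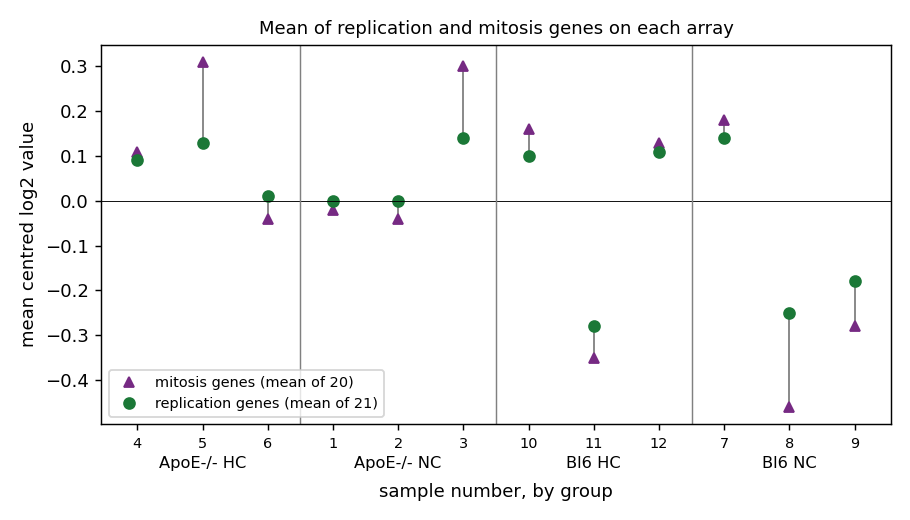
Mean centred log2 value of the 20 tested mitosis genes (triangles) and the 21 replication genes (circles) on each array, by group, with a grey line joining both. Samples 8, 9 and 11 are low for both kinds of gene, samples 3 and 5 are high, and the triangles lie farther from 0 than the circles on these 5 arrays.

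The replication and mitosis genes moved alike across arrays, the mitosis genes with the larger swing. On samples 8, 9 and 11 the mitosis mean was -0.46, -0.28 and -0.35 and the replication mean -0.25, -0.18 and -0.28. On samples 3 and 5 the mitosis mean was 0.30 and 0.31 and the replication mean 0.14 and 0.13. The genes within each kind had different low arrays: 12 of 20 mitosis genes were lowest on sample 8 and 6 on sample 11, while 11 of 21 replication genes were lowest on sample 11 and 3 on sample 8. By group, mitosis and replication means were 0.13 ± 0.18 and 0.08 ± 0.06 in ApoE-/- samples on the high-cholesterol diet and 0.08 ± 0.19 and 0.05 ± 0.08 in those on chow (SD, n = 3 each). They were -0.02 ± 0.28 and -0.03 ± 0.22 in Bl6 samples on the high-cholesterol diet and -0.19 ± 0.33 and -0.10 ± 0.21 in those on chow (SD, n = 3 each). The difference between mitosis and replication genes within a group was smaller than the spread of either between its samples.

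As a description over the 12 arrays, which share their normalization, the median correlation of a gene with the mean of the other members was 0.80, with 0.88 for mitosis and 0.64 for replication genes. Without samples 8 and 11, the 2 farthest from the median, it was 0.69 over 10 arrays, with 0.76 and 0.57. Nusap1, a microtubule-bundling spindle protein, followed the others most closely at 0.99, and Cdca3, a mitotic-entry factor, and Aurkb reached 0.97. Among replication genes Cdc6 and Tyms, thymidylate synthase, reached 0.94. At the other end were Ccne2 at -0.20, Cdt1 at 0.23, Pcna at 0.34, Chek1 at 0.41, Cdc45 at 0.44, and E2f1 and Ube2c at 0.47.

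The 5 other genes whose values were most like the mean of these genes over the 12 arrays were Mtdh (r = 0.96), Sgo1 (0.96), Cd80 (0.95), H2ac11 (0.94) and H2ac10 (0.94). Sgo1 encodes shugoshin, which guards centromeric cohesion, and H2ac10 and H2ac11 encode histones H2A. Cd80, a costimulatory ligand of antigen-presenting cells, read 8.30, 8.53 and 8.06 in ApoE-/- samples on the high-cholesterol diet and 8.18, 8.28 and 8.49 in those on chow. It read 8.37, 7.42 and 8.44 in Bl6 samples on the high-cholesterol diet and 8.60, 7.58 and 7.96 in those on chow, lowest on samples 11, 8 and 9. Over the 10 arrays without samples 8 and 11, its correlation was 0.91.

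Other lists of cell cycle genes had median genotype differences near that of the 41, but not all shared their pattern over arrays. Of 26 further replication genes 20 were tested, with a median genotype difference of 0.16 averaged over diets and 15 above 0; of 34 further mitosis genes 28 were tested, with a median of 0.16 and 24 above 0. Of 8 G1 cyclins and kinases 7 were tested (median 0.14), and of 12 cell cycle inhibitors 11 (median 0.14). The G1 mean was -0.12, -0.15 and -0.13 on samples 8, 9 and 11. It was also -0.06 and -0.14 on samples 7 and 10, where the mean of the 41 was 0.16 and 0.13. The inhibitor mean was -0.10 on sample 3, where that of the 41 was 0.22, and -0.03, -0.13 and -0.06 on samples 8, 9 and 11. In none of these lists did a gene pass in either direction. Dut, the dUTPase that keeps uracil out of DNA, averaged 6.55 in ApoE-/- and 6.24 in Bl6 samples without overlap (0.32 ± 0.09, SE, adjusted p = 0.103). Pbk, a mitotic kinase, averaged 9.12 in ApoE-/- and 8.57 in Bl6 samples without overlap (0.55 ± 0.16, SE, adjusted p = 0.109). Dut and Pbk were each picked as the gene with the smallest p of their list, and 1.36% of all genes were higher in ApoE-/- without overlap. Cdc25a, the phosphatase that activates Cdk2, averaged 8.22 and 7.65 with overlap (0.57 ± 0.18, SE, adjusted p = 0.157). Tob1, an antiproliferative protein, had the smallest p of the inhibitors (0.28 ± 0.13, SE, adjusted p = 0.334).

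Several lists of cell type markers moved with the same arrays or with genotype, and their part in these results was not tested. Germinal centre B cell markers (5 of 8 tested, with Mybl1 and Rgs13 detected on 0 arrays) had a mean of 0.04, 0.05 and 0.21 in ApoE-/- samples on the high-cholesterol diet and 0.08, 0.11 and -0.04 in those on chow. The mean was 0.18, -0.26 and 0.26 in Bl6 samples on the high-cholesterol diet and 0.25, -0.50 and -0.38 in those on chow. This mean too was lowest on samples 8, 9 and 11, and 0 of 5 passed between genotypes. Mef2b, S1pr2 and Fas were each lowest on these arrays, while Bcl6 and Gcsam were not. Bcl6 read 11.17, 11.21 and 11.16 on samples 8, 9 and 11, within its range of 10.99 to 11.26 across ApoE-/- arrays. Gcsam read 6.19, 6.69 and 6.76 on them, against 6.53 on sample 4 and 6.56 on sample 10. General B cell markers (6 of 9 tested) were highest on samples 8, 9 and 11, at 0.79, 0.41 and 0.20, and lay at -0.37 and -0.36 on samples 3 and 5, the arrays where the cell cycle genes were highest; 0 of 6 passed between genotypes.

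Between genotypes averaged over diets, 118 of all 14326 tested genes were higher in ApoE-/- samples past the threshold and 163 were lower (1.96% together). Granulocyte and granulocyte precursor markers followed genotype: 7 of 11 tested were higher in ApoE-/- samples past the threshold. Their mean level was 7.57 to 8.41 across ApoE-/- arrays and 6.91 to 7.20 across Bl6 arrays. Within ApoE-/- samples they ran against the cell cycle genes, with a mean of 0.09 in sample 3 and 0.02 in sample 5 but 0.66 to 0.86 elsewhere. The precursor genes of this list were dim, with Elane detected on 6 arrays, Prtn3 on 5 and Mpo on 11. T cell markers were also higher in ApoE-/- samples, 3 of 7 tested past the threshold, at 9.91 to 10.17 across ApoE-/- arrays and 9.45 to 9.70 across Bl6 arrays. Erythroid markers (9 of 13 tested) spanned 8.51 to 9.01 across ApoE-/- arrays and 8.21 to 9.26 across Bl6 arrays, with 1 of 9, Epor, lower past the threshold in ApoE-/- samples. Among NK cell markers 1 of 6 tested and among monocyte markers 1 of 5 tested were higher past it, and of 8 plasma cell markers 0 passed.

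Macrophage markers (8 of 9 tested, Cd5l detected on 0 arrays) had 2, Cd68 and C1qa, lower past the threshold in ApoE-/- samples, and a mean level of 12.00 to 12.74 across ApoE-/- arrays and 12.40 to 12.66 across Bl6 arrays. Within ApoE-/- samples their mean was 0.25 in sample 3 and 0.31 in sample 5, where the cell cycle genes were highest, and -0.43 to -0.04 in the others. Adgre1, the F4/80 antigen of macrophages, read 13.50 in sample 3 and 13.42 in sample 5, against 12.61 to 12.76 in the others. Marco had the widest range of the list and weighed on this mean. It read 11.55 and 11.72 in samples 3 and 5 but also 11.50 in sample 4, and 8.54, 8.23 and 8.71 in samples 1, 2 and 6. C1qa read 11.57 in samples 3 and 5, its highest ApoE-/- values, yet below the 11.79 to 12.10 across Bl6 arrays. In Bl6 samples 8, 9 and 11 the macrophage mean was 0.23, 0.10 and 0.15.

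Markers of dendritic cells themselves (12 tested) moved little, at 10.72 to 10.78 across ApoE-/- arrays and 10.63 to 10.82 across Bl6 arrays. They were nevertheless lowest on samples 8, 9 and 11, at -0.09, -0.09 and -0.05. Zbtb46 read 7.19, 6.69 and 7.25 on these and at least 7.49 on every other array. Not all of the list followed. Irf8 read 12.17, 12.07 and 12.13 on samples 8, 9 and 11, against 11.98 to 12.12 across ApoE-/- arrays. H2-Ab1 read 14.72, 14.64 and 14.71 on them, within its range of 14.48 to 14.82 across ApoE-/- arrays. Siglech had its highest value, 11.43, on sample 9.

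**Figure D5:**
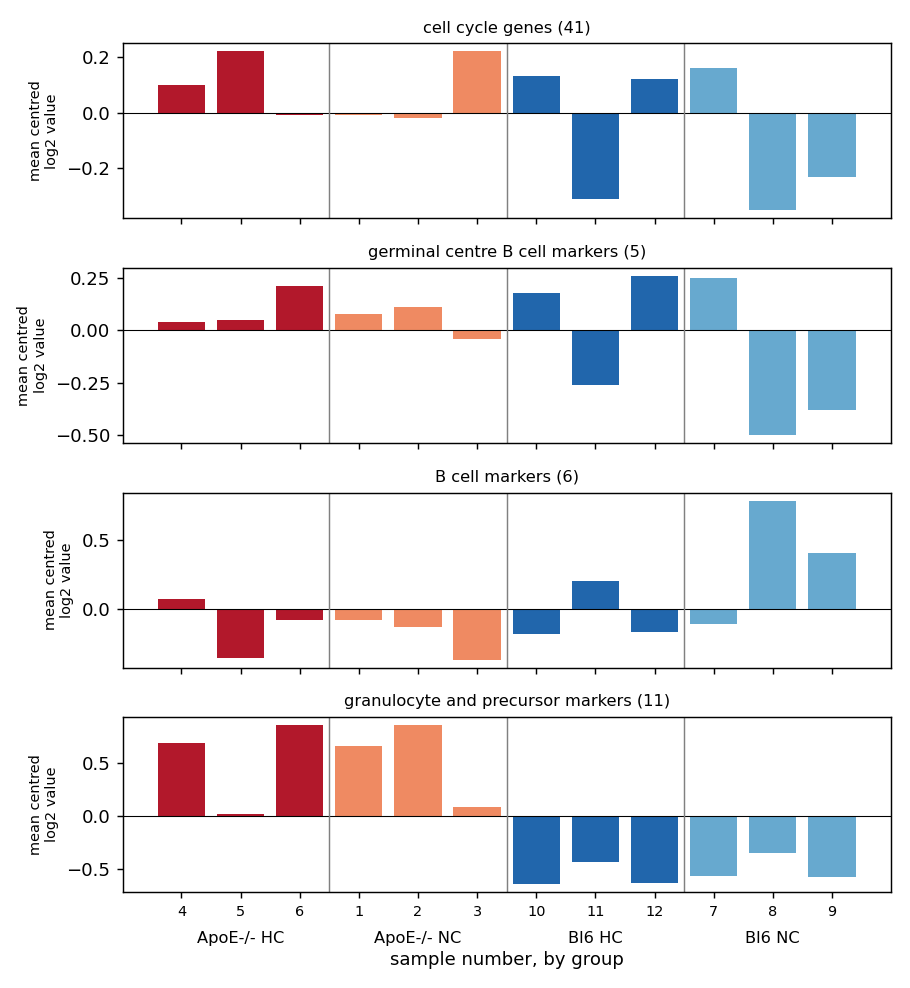
Mean centred log2 value on each array (bars, by group, ApoE-/- on the left) for the 41 cell cycle genes, 5 germinal centre B cell markers, 6 B cell markers and 11 granulocyte and precursor markers. Samples 8, 9 and 11 are low in the upper 2 panels and high in the B cell panel; the granulocyte panel separates the genotypes.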

How the data were processed

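Per the labels' protocols, 100 ng of RNA per sample was hybridised to its own array. The deposited intensity table holds, per the file headers, a linear intensity and a detection p-value for each of 46237 probes, neither background-subtracted nor scaled between arrays. The authors' other deposited table holds log2 values, and each column differs from the log2 of 1 intensity column by a constant (0 to 0.443); neither its origin nor the scanner software is given in the sources used here. 

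Here, intensities were background-corrected with limma 3.58.1 in R 4.3.3 (normexp with controls estimated from detection, offset 16), quantile normalized and put on the log2 scale. Detection at 0.05 on 3 arrays or more left 26390 probes, which were fitted with the 4 group means over 12 arrays (lmFit and eBayes, 8 residual degrees of freedom), with Benjamini-Hochberg adjustment over all tested probes. Fits were also run on simulated data with independent noise for each probe, so that run does not speak to genes that move together. Of the probes, 35784 carried 1 gene symbol on the platform, 0 several and 10453 none; 28620 symbols were updated by gene number and 2637 by transcript, and 4527 were kept. A gene stands for its brightest tested probe. The genes and lists were chosen with earlier results of these data known. Values are given for the gene with the smallest p of each of 8 role groups (genotype averaged over diets), for Mki67, Top2a, Pcna and Ccne1, for the smallest p of each further list, and for the 5 other genes most correlated with the mean of the 41; the remaining genes are given by their differences. Genes whose groups did not overlap, and Mcm6, were named after their values were seen. Neither a chip nor a batch is named for any array. The alternatives were other background, scaling and filter settings, the authors' log2 table under either set of diet names, exchanged ApoE-/- diets, array weights, separate fits and leaving out each array.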

Additional observations from a re-analysis of the deposited data

How the results depend on the processing

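Between 22 and 23 alternatives were run for each comparison, 1 of them (the authors' log2 table under the intensity table's names) chosen after seeing the data. The count of these genes past the threshold between genotypes averaged over diets was 3 with no background correction, 1 with an offset of 50 and 6 in the authors' log2 table under either set of names, against 0; leaving out 1 sample at a time gave 0 to 1, the 1 being Mki67 without sample 7. On the high-cholesterol diet the count was 3 in the authors' table under the intensity table's names and 1 under its own names, which also exchanges the ApoE-/- arrays. The cause was not tested. In the other comparisons the count stayed at 0. Medians depended on single samples: between genotypes averaged over diets the median of the 41 genes lay between 0.10 (without sample 11) and 0.29 (without sample 7), on chow between 0.16 (without sample 8) and 0.37 (without sample 7), on the high-cholesterol diet between -0.05 (without sample 11) and 0.21 (without sample 10), and for diet in Bl6 samples between 0.00 (without sample 8) and 0.28 (without sample 7). For single genes, values under the alternatives were compared for Ccne1, Mcm2, Mcm10, Rrm1, Foxm1, Mki67, Cdc20, Kif11, Top2a and Pcna. Of these 1580 values, 90 had the other sign and 16 passed. The passes of Mcm4 and Mcm5 given above are not among the 16. The count of all probes passing between genotypes, 423, ran between 143 (without sample 1) and 619 (without sample 7) when 1 sample was left out, and between 332 and 1653 under the other settings. No paired analysis was possible because the running numbers 1 to 12 are shared by no groups. The slide as a block was not run, as no chip is named. Precision is limited by 3 arrays a group and, for Chek1, Ccna2, Ube2c and Gmnn, by signals near background.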
